A study of Mus musculus with 6 samples.

Results

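Notch signalling passes messages between touching cells. A ligand of the Delta or Jagged type on one cell binds a Notch receptor on its neighbour, the receptor is cut, and its freed intracellular part enters the nucleus, where it joins the DNA-binding protein RBPJ and switches on repressor genes of the Hey and Hes families. In the developing heart the pathway is known for its roles in endocardium, arteries, valves and the trabeculae, while *Hey2* is expressed in ventricular cardiomyocytes and marks the compact layer of the ventricular wall. Here 10 genes of this pathway were followed in E18.5 hearts, out of 13809 genes in the deposited count table. They were taken by gene symbol and comprised 3 receptors (*Notch1*, *Notch2*, *Notch3*), 3 ligands (*Dll4*, *Jag1*, *Jag2*) and 4 target genes (*Hey1*, *Hey2*, *Heyl*, *Hes1*).

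The hearts came from wildtype (WT) embryos and from embryos homozygous for a *Pkm1* knockout (KO), with 3 libraries per genotype, all at embryonic day 18.5. The KO allele is a germline CRISPR/Cas9 deletion in the exon specific to *Pkm1*, the isoform of pyruvate kinase that is abundant in heart muscle, so every cell type of the embryo carried it. The line was made in zygotes of BDF1 mice, a cross of C57BL/6J and DBA/2. The labels call the tissue heart and the study calls it ventricular. No treatment was given to either genotype. Since column names show only the genotype, letters (a, b, c) stand for the libraries of each genotype in column order.

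Library totals were 15597756 to 19875546 counts in WT and 15567624 to 18577404 in KO. *Pkm*, the targeted gene, had a mean of 1318 ± 41.1 CPM in WT libraries and 542 ± 10.1 CPM in KO libraries (SD, n = 3 each; CPM, counts scaled to a library of fixed size after TMM normalization). All 10 cardiomyocyte markers were abundant, the lowest at a mean of 1135 CPM. WT c stood apart from WT a and WT b: its counts differed from theirs with a chi-square per degree of freedom of 3.75 and 3.23, against 1.56 between WT a and WT b and 1.62 to 1.88 among the KO libraries. The common coefficient of variation between replicates was 3.42% in edgeR's fit, and the p-values below rest on this small spread. The labels do not say whether a library holds a single heart or a pool, so the spread between embryos cannot be told from it. Y-linked *Ddx3y*, *Uty*, *Eif2s3y* and *Kdm5d* were detected in every WT library and had 0 CPM in every KO library, and the mean of *Xist* was 5.26 CPM in WT against 2285 CPM in KO. Genotype and embryonic sex therefore cannot be told apart in any comparison below. All 10 genes are autosomal. In bulk tissue, fewer cells of a type and less RNA per cell cannot be told apart either.

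The promoter of *Hey2* is shown because *Hey2* rose in KO hearts and its window holds letters that belong to this pathway and to NFY, the transcription factor the study follows. The promoter of *Dll4* is shown beside it as the ligand that came nearest to the threshold, and that of *Nrarp*, a Notch-induced inhibitor of Notch signalling, as the pathway gene that rose most. Each sequence is a RefSeq window of GRCm38.p6 that runs from 250 bases before to 50 bases after the annotated start. Such a window was matched for 7 of the 10 genes, and for *Hey1*, *Heyl* and *Hes1* none is shown. Capitals mark GTGGGAA, the core bound by RBPJ, and CCAAT, the box bound by NFY, each searched on both strands (TTCCCAC and ATTGG are their reverse complements). The 2 motifs do not overlap each other in these windows.
*Hey2* promoter, chr10:30842734-30843033, minus strand: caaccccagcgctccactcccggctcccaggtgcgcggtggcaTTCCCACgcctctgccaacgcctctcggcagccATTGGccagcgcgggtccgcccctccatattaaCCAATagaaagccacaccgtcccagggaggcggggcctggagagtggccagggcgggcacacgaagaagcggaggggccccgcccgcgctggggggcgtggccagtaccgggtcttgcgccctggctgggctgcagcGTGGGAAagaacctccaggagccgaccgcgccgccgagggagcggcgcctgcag
*Dll4* promoter, chr2:119325534-119325833, plus strand: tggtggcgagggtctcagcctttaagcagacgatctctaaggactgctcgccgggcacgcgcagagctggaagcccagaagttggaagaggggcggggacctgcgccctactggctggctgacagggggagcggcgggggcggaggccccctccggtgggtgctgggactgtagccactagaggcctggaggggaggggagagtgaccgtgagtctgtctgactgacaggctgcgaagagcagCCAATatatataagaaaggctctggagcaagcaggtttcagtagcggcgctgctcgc
*Nrarp* promoter, chr2:25180508-25180807, plus strand: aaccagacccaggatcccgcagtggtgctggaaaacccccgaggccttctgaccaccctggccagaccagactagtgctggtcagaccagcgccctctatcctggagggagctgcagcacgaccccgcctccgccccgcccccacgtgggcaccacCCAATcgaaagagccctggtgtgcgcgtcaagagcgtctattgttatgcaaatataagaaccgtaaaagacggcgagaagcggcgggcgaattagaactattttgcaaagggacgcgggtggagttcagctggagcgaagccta

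*Hey2* was the only target gene among the 7 genes, since *Hey1*, *Heyl* and *Hes1* had no window to search. *Hey2* was also the only one of the 7 with the RBPJ core in its window. It held the core 2 times, at -207 to -201 in the reverse orientation and at -4 to 3 as written, counted from the start site with no position 0. It also held 2 CCAAT boxes, at -174 to -170 in the reverse orientation and at -141 to -137 as written. *Dll4* held 1 CCAAT box, at -7 to -3, and *Nrarp* 1, at -94 to -90. The windows of *Notch1*, *Notch2*, *Notch3*, *Jag1* and *Jag2* held neither motif. Of further pathway genes searched, *Hes7*, which fell, held 1 RBPJ core at -180 to -174 in the reverse orientation, and the windows of *Rbpj* held neither. Of all 32851 windows in the table, 6.38% held the RBPJ core and 37.4% a CCAAT box. These matches describe letters only, and no binding was measured.

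In KO hearts *Hey1* and *Hes1* were lower and *Hey2* was higher. *Heyl* was higher with an adjusted p of 0.0498 (edgeR's quasi-likelihood test), a call that 9 of 17 alternatives lost. No receptor or ligand passed the test, and the difference between targets and the other roles was not itself tested. At an adjusted p under 0.05 (edgeR's quasi-likelihood test, Benjamini-Hochberg over all 13804 genes tested), 4 of the 10 genes passed, 2 lower and 2 higher. Of all genes tested, 30.3% passed, 15.7% lower and 14.6% higher, so the share of 40.0% among these 10 genes lies near the background of a comparison that moved many genes. The median log2 fold change was -0.03 over the 10 genes and 0.0017 over all genes tested. All 10 genes passed the filter on low counts, with 209 to 3599 counts per library.

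**Figure D1:**
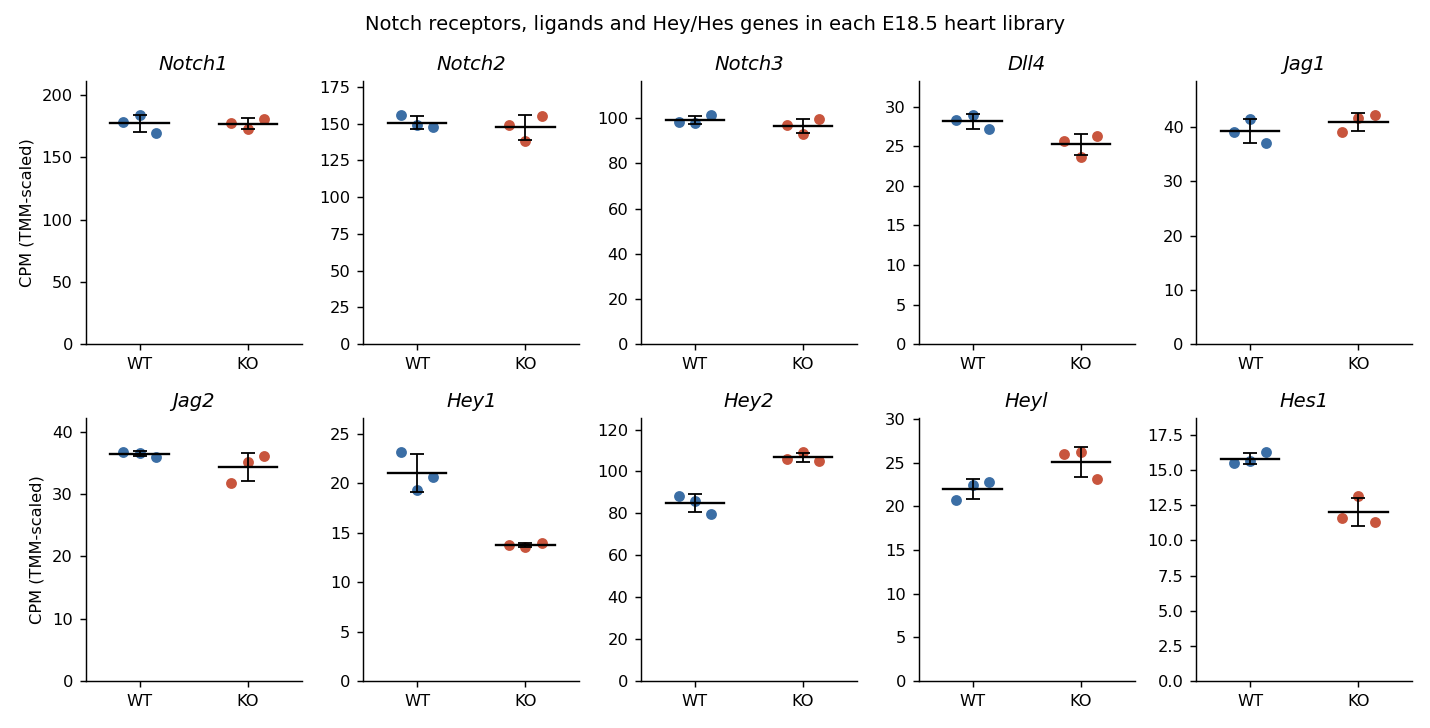
CPM of each gene (vertical axes, from 0) in the 3 WT libraries (blue) and the 3 KO libraries (red) at E18.5, in the order a, b, c from left to right; horizontal lines are means and bars SD. The groups lie apart for *Dll4*, *Hey1*, *Hey2*, *Heyl* and *Hes1* and overlap for the other genes.

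*Hey2* encodes a basic helix-loop-helix repressor of ventricular cardiomyocytes and is located on chromosome 10 (GRCm38, 30832359 to 30842801, minus strand). Its level was 88.2, 86.1 and 79.9 CPM in WT a, b and c and 106, 109 and 105 CPM in KO a, b and c. Every KO library lay above every WT library. The means were 84.7 ± 4.32 and 107 ± 2.26 CPM (SD, n = 3 each), which gave 0.33 as the log2 fold change (95% interval 0.24 to 0.42, adjusted p = 1.60e-06, edgeR's quasi-likelihood test). The KO mean was 126% of the WT mean. WT c had the lowest value, and without it the log2 fold change was 0.29 and the call remained.

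*Hey2* was set beside the other genes that mark layers of the ventricular wall. Of 3 further compact layer genes, the cyclin *Ccnd1* (log2 fold change -0.16) and the transcription factor *Tbx20* (-0.14) fell, and *Mycn* (0.12, adjusted p = 0.244) did not pass edgeR's quasi-likelihood test. Of 7 trabecular genes, *Nppa*, which encodes atrial natriuretic peptide, rose (0.68), and *Nppb*, its B-type relative, and the transcription factor *Irx3* fell (-0.80 and -0.25). *Bmp10*, *Gja5*, *Cited1* and *Cpne5* did not pass. The rise of *Hey2* thus went with a fall of 2 compact layer genes. *Nppa* was the only one of the 7 trabecular genes that rose, and it is also an atrial gene. The atrial markers *Myl4* (1.10) and *Myl7* (0.75) rose as well, and their part in the level of *Nppa* was not tested.

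*Hey1*, a close relative of *Hey2* that is found in atrial myocardium and in endothelium, is located on chromosome 3 (8663359 to 8667256, minus strand). It was at 23.2, 19.3 and 20.6 CPM in WT a, b and c and 13.8, 13.5 and 14.0 CPM in KO a, b and c. The KO libraries lay close together and below all WT libraries. The means were 21.0 ± 1.95 and 13.7 ± 0.222 CPM (SD, n = 3 each), which gave -0.61 as the log2 fold change (95% interval -0.78 to -0.44, adjusted p = 3.25e-06, edgeR's quasi-likelihood test), the largest change among the 10 genes. The KO mean was 65.3% of the WT mean.

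The ratio of *Hey2* to *Hey1* counts sums up how these relatives parted. It was 3.81, 4.45 and 3.87 in the WT libraries and 7.68, 8.08 and 7.52 in the KO libraries. The mean ratio in KO was 1.92 times that in WT, and 1.87 to 2.02 times with each library left out in turn. Lengths cancel between genotypes in this ratio, which is given as a description since the pair was chosen for its opposite changes.

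*Hes1*, a repressor that many cell types switch on in response to Notch and to other signals, is located on chromosome 16 (30064384 to 30067796, plus strand). It was at 15.5, 15.7 and 16.3 CPM in WT a, b and c and at 11.6, 13.2 and 11.3 CPM in KO a, b and c. All KO libraries were below all WT libraries, with KO b the highest of them. The log2 fold change was -0.40 (95% interval -0.58 to -0.21, adjusted p = 0.00126, edgeR's quasi-likelihood test), and the KO mean was 76.1% of the WT mean.

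*Heyl*, the Hey gene of smooth muscle and pericytes, is located on chromosome 4 (123233556 to 123249875, plus strand). It was at 20.7, 22.4 and 22.8 CPM in WT a, b and c and at 26.0, 26.2 and 23.1 CPM in KO a, b and c. The groups did not overlap, but KO c lay close to WT c. The log2 fold change was 0.19 (95% interval 0.04 to 0.34), and its adjusted p of 0.0498 (edgeR's quasi-likelihood test) lay at the threshold. The call was lost under 9 of 17 alternatives, with DESeq2 (adjusted p = 0.134) and without WT a, WT b, KO a or KO b among them, and the direction was kept in all 17.

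**Figure D2:**
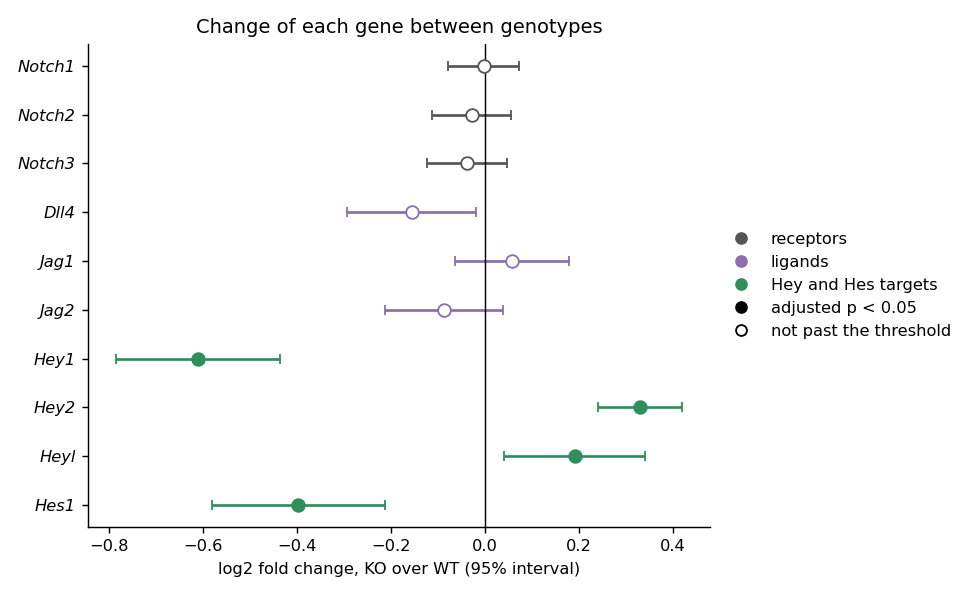
Log2 fold change of KO over WT (horizontal axis) for each gene with its 95% interval from edgeR's quasi-likelihood fit; grey, receptors; purple, ligands; green, Hey and Hes targets; filled circles passed an adjusted p under 0.05. The receptors lie near 0 while *Hey1* (-0.61) and *Hey2* (0.33) lie on opposite sides.

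The receptors were nearly level between genotypes. *Notch1*, the main receptor of endocardium and endothelium (chromosome 2, 26457903 to 26516663, minus strand), had 178, 184 and 169.9 CPM in WT a, b and c and 177, 172 and 181 CPM in KO a, b and c. These ranges overlap almost wholly, and the log2 fold change was -0.0034 (95% interval -0.08 to 0.07). *Notch2*, which acts in valve and smooth muscle cells among others (chromosome 3, 98013527 to 98150361, plus strand), had 156, 149 and 147 CPM in WT a, b and c and 149, 138 and 155 CPM in KO a, b and c. Its log2 fold change was -0.03 (95% interval -0.11 to 0.05), with the groups overlapping. *Notch3*, the receptor of pericytes and vascular smooth muscle (chromosome 17, 32120820 to 32166852, minus strand), had 98.5, 98.1 and 101 CPM in WT a, b and c and 97.2, 93.0 and 99.5 CPM in KO a, b and c, a log2 fold change of -0.04 (95% interval -0.12 to 0.05). Adjusted p-values were 0.955, 0.637 and 0.521 for the 3 receptors (edgeR's quasi-likelihood test). All 3 intervals ended short of the 0.33 measured for *Hey2*. The fourth receptor, *Notch4*, which is found mainly in endothelium, averaged 65.6 ± 0.957 CPM in WT libraries and 63.6 ± 1.03 CPM in KO libraries (SD, n = 3 each) and did not pass either (log2 fold change -0.04, adjusted p = 0.523).

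Among the ligands, *Dll4*, the endothelial ligand of arteries and sprouting vessels, came nearest to the threshold. It is located on chromosome 2 (119325784 to 119335962, plus strand) and was at 28.3, 28.9 and 27.1 CPM in WT a, b and c and at 25.7, 23.7 and 26.2 CPM in KO a, b and c. The groups did not overlap, with a log2 fold change of -0.16 (95% interval -0.29 to -0.02, adjusted p = 0.0783, edgeR's quasi-likelihood test). Without WT c its adjusted p was 0.0486 (edgeR's quasi-likelihood test), and it did not pass under the other 16 alternatives. An exon of *Gm14207* overlaps *Dll4* on the opposite strand, and since the strand setting of the counting is not given in the sources used here, their reads may not be separate. *Gm14207* averaged 1.75 CPM in WT libraries and 1.06 CPM in KO libraries. Exons of genes without counts here also overlap *Notch1* and *Notch3* on the opposite strand and *Notch2* on the same strand. The same limit holds for the reads of these receptors.

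*Jag1*, a Jagged ligand of endothelium, smooth muscle and neural crest derivatives (chromosome 2, 137081456 to 137116644, minus strand), had 39.0, 41.5 and 37.1 CPM in WT a, b and c and 39.0, 41.7 and 42.1 CPM in KO a, b and c. Its groups overlapped, with a log2 fold change of 0.06 (95% interval -0.06 to 0.18, adjusted p = 0.499, edgeR's quasi-likelihood test). *Jag2*, its relative (chromosome 12, 112907819 to 112929776, minus strand), had 36.7, 36.6 and 36.0 CPM in WT a, b and c and 31.8, 35.0 and 36.1 CPM in KO a, b and c. KO a was lowest and the other KO libraries were close to WT, giving a log2 fold change of -0.09 (95% interval -0.21 to 0.04, adjusted p = 0.294, edgeR's quasi-likelihood test) and -0.03 without KO a. The ligand *Dll1* was low, with means of 2.10 CPM (WT) and 2.54 CPM (KO), and did not pass (adjusted p = 0.379, edgeR's quasi-likelihood test).

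In 5 of the 10 genes the 3 WT and 3 KO libraries did not overlap: *Dll4*, *Hey1* and *Hes1* were lower and *Hey2* and *Heyl* higher. Over all genes tested, 42.4% did not overlap, 21.4% lower and 21.0% higher. The replicate spread of the 10 genes was small, with a coefficient of variation of 1.05% (*Jag2*) to 9.25% (*Hey1*) in WT and 1.61% (*Hey1*) to 8.39% (*Hes1*) in KO.

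To compare levels between genes, CPM were divided by the length of each gene's merged exons in kilobases (RPKM). In WT the order from the highest level was *Hey2* (18.4 RPKM), *Notch2* (14.0), *Notch1* (12.5), *Notch3* (12.3), *Hes1* (7.77), *Dll4* (7.30), *Jag1* (6.73), *Hey1* (6.45), *Jag2* (5.23) and *Heyl* (4.30). *Notch1* and *Notch3* overlapped, as did *Dll4* and *Jag1*, and *Jag1* and *Hey1*, and the other 6 of 9 neighbouring pairs were separate in all 3 WT libraries. In KO the first 4 genes kept their places, and they were followed by *Jag1* (7.03 RPKM), *Dll4* (6.54), *Hes1* (5.91), *Jag2* (4.93), *Heyl* (4.91) and *Hey1* (4.21). *Hes1* thus went from rank 5 to 7 and *Hey1* from rank 8 to 10, although *Dll4* overlapped both *Jag1* and *Hes1* in KO, as *Notch1* did *Notch3* and *Jag2* did *Heyl*. With the length of the longest transcript in place of merged exons *Hey2* was still first in both genotypes. *Notch1* (18.7 RPKM in WT) stood above *Notch2* (14.4). *Heyl* was then last in both genotypes, although it overlapped *Hey1* in KO. *Hes1* then kept rank 5 in both genotypes and *Hey1* went from rank 6 to 9, while *Jag2* and *Jag1* took ranks 8 and 9 in WT. The order below *Hey2*, and the move of *Hes1* in it, therefore depend on the length used.

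**Figure D3:**
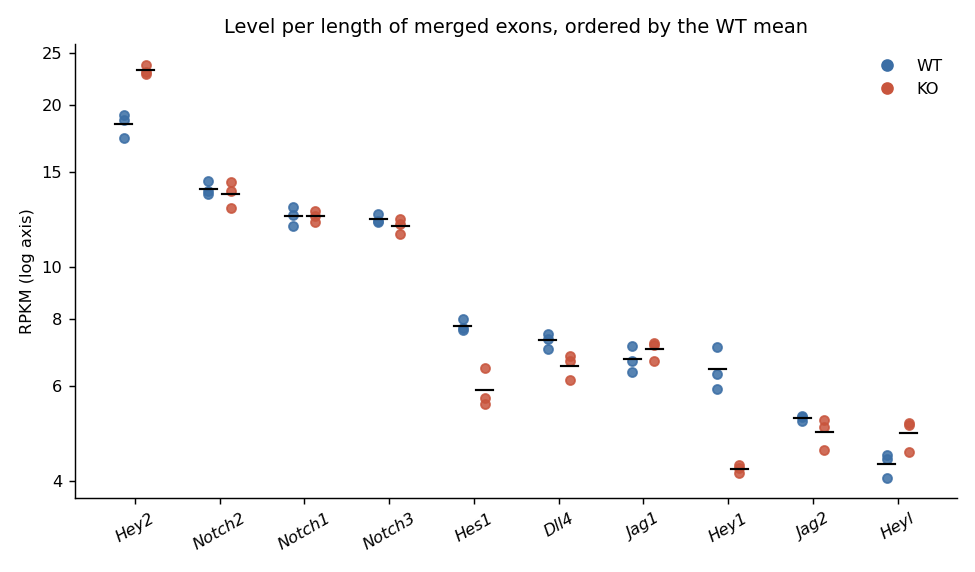
Level of each gene in RPKM of merged exons (vertical log axis), ordered by the WT mean; blue points are WT libraries, red points KO libraries and black lines means. *Hey2* is highest in both genotypes and *Hey1* moves from 6.45 to 4.21 RPKM.

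The rest of the pathway was followed in 61 further genes, listed by role. Of these, 9 were lower and 7 higher past the threshold (edgeR's quasi-likelihood test), which is 26.2% against the 30.3% of all genes tested, and their median log2 fold change was -0.0038. *Nrarp*, which is switched on by Notch and dampens it, rose from 33.3, 34.1 and 35.0 CPM in the WT libraries to 43.5, 46.8 and 46.3 CPM in the KO libraries. Its groups were well apart, with a log2 fold change of 0.42 (95% interval 0.30 to 0.53, adjusted p = 2.89e-06). The other called genes of signal attenuation and turnover were lower. They were the endocytic adaptor *Numbl* (-0.27, adjusted p = 0.0434, edgeR's quasi-likelihood test), the ubiquitin ligase subunit *Fbxw7* (-0.20) and the kinase *Aak1* (-0.12). *Fbxw7* marks the Notch intracellular domain for destruction.

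In the nuclear complex that Notch activates, 8 genes were tested. *Rbpj*, its DNA-binding subunit, fell from 74.1, 75.1 and 66.6 CPM in WT a, b and c to 65.0, 61.1 and 63.1 CPM in KO a, b and c (log2 fold change -0.19, 95% interval -0.30 to -0.09, adjusted p = 0.00521, edgeR's quasi-likelihood test). The groups did not overlap, although WT c lay close to KO a. The coactivator *Maml1* fell (-0.16) and the acetyltransferase *Ep300* rose (0.19), while *Maml2*, *Maml3*, *Crebbp*, *Kat2b* and *Snw1* did not pass. Of 14 corepressor genes only *Ncor1* passed, with a log2 fold change of -0.10.

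Of 10 genes that cut the receptor, among them the ADAM proteases and the subunits of gamma-secretase, only *Furin*, the protease of the first cut, passed, and it fell (log2 fold change -0.22). Of 5 genes that add sugars to the receptor, *Rfng* (0.22) and *Pofut1* (0.17) rose. Of 7 genes for ligand uptake, the ubiquitin ligase *Mib2* rose (0.26) and the epsin *Epn1* fell (-0.13). Of the 3 further receptors and ligands tested, the non-canonical ligand *Dlk1* rose (0.19) and *Notch4* and *Dll1* did not pass. Both further Hes genes tested passed: *Hes6*, an antagonist of *Hes1*, rose (0.30) and *Hes7*, the oscillating gene of somite formation, fell (-1.18). *Hes7* was near the lower end of the table, at 1.04, 1.94 and 2.17 CPM in WT and 0.742, 0.505 and 0.966 CPM in KO, where 3 counts are 0.151 to 0.193 CPM.

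**Figure D4:**
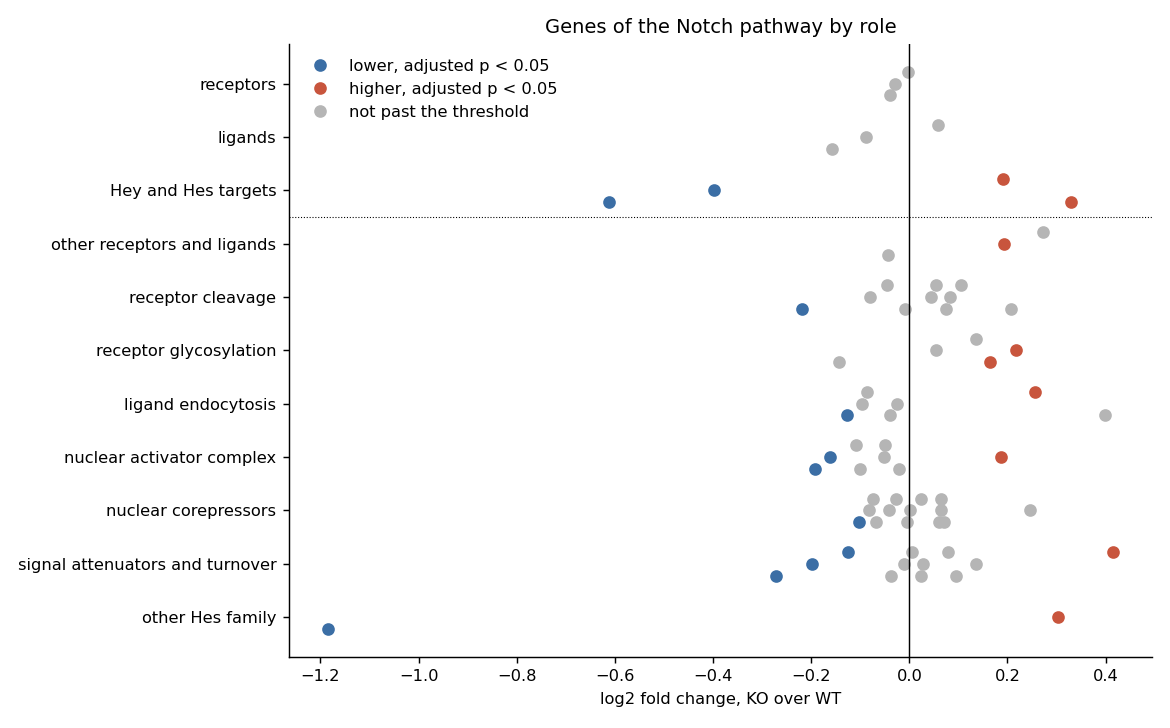
Log2 fold change of KO over WT (horizontal axis) for every tested gene of the Notch pathway, one row per role; blue, lower and red, higher at an adjusted p under 0.05; grey, not past the threshold; the 3 rows above the dotted line are the 10 genes described first. Called genes lie on both sides of 0, with *Hes7* (-1.18) and *Hey1* (-0.61) furthest to the left and *Nrarp* (0.42) the called gene furthest to the right.

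Genes of arteries, other vessels and endocardium that are linked to Notch also moved both ways. Of 16 such genes, 3 fell and 4 rose (edgeR's quasi-likelihood test), which is 43.8% against the 30.3% of all genes tested. *Efnb2*, the arterial ephrin ligand, fell (log2 fold change -0.19), as did the endothelial transcription factors *Sox17* (-0.45) and *Sox18* (-0.28). *Gja4*, an arterial connexin, rose from 6.97 ± 0.0712 to 10.9 ± 0.188 CPM (SD, n = 3 each; log2 fold change 0.64, adjusted p = 3.96e-05). *Nrg1*, the endocardial growth factor that acts on cardiomyocytes, rose (0.60), as did *Sox7* (0.19) and *Nrp1* (0.15). *Ephb4*, *Bmp10*, *Gja5* and *Unc5b* were among the 9 that did not pass.

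Because these genes are expressed in different cell types, markers of those types were measured beside them. Of 12 endothelial markers 5 fell (*Cdh5*, *Pecam1*, *Erg*, *Robo4*, *Tie1*) and 2 rose (*Egfl7*, *Flt1*), and their summed level was 1661 to 1673 CPM in WT and 1627 to 1663 CPM in KO. Of 4 endocardial markers *Hapln1* rose and none fell. *Hapln1* was low, with means of 1.37 CPM in WT and 2.60 CPM in KO, and the other endocardial markers did not pass. Of 11 mural markers 4 fell and 1 rose, with sums of 1478 to 1502 CPM in WT and 1405 to 1416 CPM in KO. Of 10 cardiomyocyte markers 7 fell and 3 rose, with sums of 141314 to 145412 CPM in WT and 134534 to 135884 CPM in KO. None of these markers was at 0.

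Set against these sums, *Hey1*, *Dll4*, *Heyl* and *Hey2* kept the direction they had in CPM, while the small differences of *Notch1* and *Notch3* turned from below to above 0. *Hey1* was at 13.9, 11.6 and 12.3 per 1000 CPM of endothelial markers in WT and 8.47, 8.19 and 8.39 in KO, a log2 ratio of KO to WT of -0.60, and the groups did not overlap. *Dll4* was at 17.1, 17.3 and 16.2 in WT and 15.8, 14.4 and 15.8 in KO (log2 ratio -0.14), also without overlap, whereas *Notch1* overlapped (0.02). *Heyl* per 1000 CPM of mural markers was at 14.0, 15.1 and 15.2 in WT and 18.5, 18.6 and 16.3 in KO (log2 ratio 0.27), without overlap, and *Notch3* overlapped (0.04). *Acta2* and *Abcc9*, at means of 568 and 494 CPM in WT, were the largest parts of the mural sum. How far their RNA came from mural cells was not tested. Against the mean log2 CPM of the mural markers, the log2 ratios of *Heyl* and *Notch3* were 0.27 and 0.04. *Hey2* per 1000 CPM of cardiomyocyte markers was at 0.624, 0.606 and 0.549 in WT and 0.779, 0.812 and 0.777 in KO (log2 ratio 0.41, or 0.48 against the mean log2 CPM of the markers), again without overlap. *Ttn*, *Myh7* and *Myh6*, at means of 78884, 19536 and 13979 CPM in WT, were the largest parts of the cardiomyocyte sum. *Hey2* was set against no other cell type's markers, and the cell type in which it rose was not measured. These ratios carry no test.

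**Figure D5:**
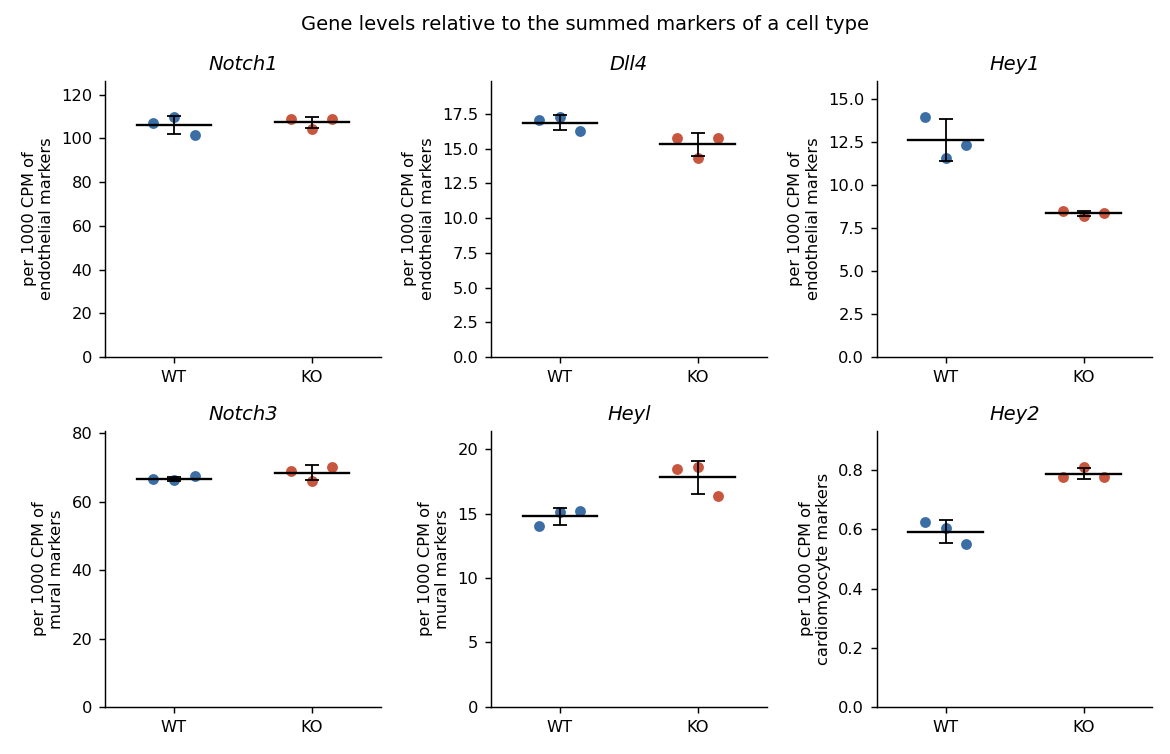
Level of 6 genes per 1000 CPM of the summed markers of a cell type (vertical axes, from 0) in the 3 WT (blue) and 3 KO (red) libraries; lines are means and bars SD. *Hey1* and *Dll4* lie lower and *Heyl* and *Hey2* higher in every KO library, while *Notch1* and *Notch3* overlap.

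Other lists moved with the genotype. All 12 immediate early genes, which cells switch on within minutes of a stimulus, fell in KO, with summed levels of 883 to 965 CPM in WT and 238 to 242 CPM in KO, and their part in the lower *Hey1* and *Hes1* was not tested. Of 5 atrial markers tested *Myl4* and *Myl7* rose and none fell, and *Nr2f1* (-0.23), *Nr2f2* (0.06) and *Stard10* (-0.09) did not pass. Of 6 epicardial markers 3 rose and none fell, of 8 fibroblast markers 4 fell and none rose, of 6 immune markers *C1qa* fell, and of 3 erythroid markers *Slc4a1* fell and *Alas2* rose. The part of these cell types in the results was not tested.

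The genes most like a receptor, a ligand and a target in pattern were found by Pearson's r of log2 CPM over the 6 libraries, among the 13508 genes whose mean reached 1 CPM. For *Notch3* they were *Ica1l*, *Nhlrc2* and *Sh3gl3* (r = 0.987, 0.986 and 0.986), and for *Dll4* they were *Sgms2*, *Ythdf1* and *Pld1* (0.993, 0.992 and 0.990). For *Hey2* they were *Zfp108*, *Ubn2* and *Naa20* (0.999, 0.998 and 0.997). All points share the same 6 libraries in 2 groups, so these values are a description.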

How the data were processed

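Total RNA of E18.5 hearts in 3 WT and 3 KO libraries was depleted of ribosomal RNA and sequenced as paired reads; the study calls the replicates biological. Per the labels the submitters' processing notes name cutadapt 1.18, HISAT2, StringTie and mm10. The table the authors deposited holds raw counts by gene symbol, and beside them log2 values (fold change and average CPM) and p-values of their own edgeR comparison, which were not used. The counting program, its strand setting and the filter on low counts are not given in the sources used here; every gene has at least 59 counts in all.

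The analysis used edgeR 4.0.16 in R 4.3.3: filterByExpr (13804 of 13809 genes kept), TMM, and the quasi-likelihood test of a model holding genotype alone, with Benjamini-Hochberg adjustment over all genes and a threshold of 0.05. The script was tested on simulated data. Alternatives used DESeq2 1.42.0, limma 3.58.1 (voom), edgeR's exact and likelihood ratio tests, other scalings and filters, and each library left out. Coordinates and lengths are from GENCODE M21 (GRCm38). The genes and lists were chosen with earlier results of these data known. Named are the 10 genes, *Notch4*, *Dll1* and *Rbpj*, and genes of the pathway, arterial and wall layer lists that passed. At most 6 a list were planned, and *Sox7* was named beyond them in the arterial list. Marker genes are named where their counts needed them. *Gm14207* and the uncalled genes of the pathway, arterial and wall layer lists were named after their values were seen.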

Additional observations from a re-analysis of the deposited data

How the results depend on the processing

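No paired analysis was possible, because the count columns carry no replicate numbers and the sample titles name no litter or pair. An alternative that adds up the WT a and b libraries was chosen after seeing the data, as was leaving libraries out of the ratio of *Hey2* to *Hey1*. Over 17 alternatives *Hey1*, *Hey2* and *Hes1* kept their direction and call, with log2 fold changes of -0.68 to -0.54, 0.29 to 0.36 and -0.46 to -0.36. The number of higher genes among the 10 fell from 2 to 1, by the loss of *Heyl*, with RLE size factors (adjusted p = 0.0506), DESeq2 (0.134), voom (0.0541), scaling without the immediate early genes (0.0501) and WT a and b added up (0.0868). With 1 library left out it was 1 to 2 and the number of lower genes 2 to 3. The further pathway genes were 6 to 10 lower and 4 to 8 higher with 1 library left out (4 without WT a), against 9 and 7. The directions of *Notch1* and *Notch2*, which were never called, reversed: *Notch1* to 0.0216 without WT b, 0.0144 without KO b and 0.00625 with WT a and b added up (range with 1 library left out -0.0333 to 0.0216), and *Notch2* to 0.0137 without KO b (range -0.0653 to 0.0137). Genes called over the whole table were 1704 to 2306 lower and 1479 to 2013 higher with 1 library left out, against 2168 and 2011. The causes of these changes were not tested. With 1 library left out the other uncalled genes kept their direction, at -0.06 to -0.01 for *Notch3*, 0.02 to 0.10 for *Jag1*, -0.13 to -0.03 for *Jag2* and -0.19 to -0.12 for *Dll4*.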
